A study of Mus musculus with 4 samples.

Results

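The imprinted genes described here are 51 autosomal mouse genes whose expression is known to depend, at least in some settings, on the parental copy. They were chosen by name, and all 51 were found by symbol in a RefSeq gene table on GRCm38.p6 (mm10). They make up 45 of its 20661 autosomal protein-coding genes and 6 of its 12408 autosomal long non-coding RNA (lncRNA) genes, and they lie in 19 clusters on 10 chromosomes. A loop, a pair of genome segments (anchors) that Hi-C found in frequent contact, was assigned to a gene when an anchor overlapped the gene body extended by 10 kb on each side.

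In Hi-C, neighbouring pieces of chromatin are ligated and read as pairs. Whole uteri of C57BL/6J females over 10 weeks old were used after removal of the ovaries and a rest of 10 to 14 days, and all tissue was frozen 1 h after a last injection. A pair of libraries (replicates 2 and 3) came from wild-type (WT) mice injected with 100 ul of saline into the abdominal cavity. A WT library (replicate 2) followed a subcutaneous dose of progesterone (1 mg in sesame oil, 100 ul), so it differs from the vehicle libraries in carrier and route as well. A knockout library of mice without ERα, the estrogen receptor that Esr1 encodes, whose genotype label is Ex3aERKO, followed saline. Every group therefore lacked hormones from its own ovaries, and only the progesterone group was given one by injection. The sources used here do not give the number of animals behind a library. The progesterone and knockout groups had 1 library each, so no test between conditions was made, and intervals are exact binomial 95% intervals that cover counting error only.

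Imprinted genes are marked in the germ line by DNA methylation at CpG sites of control regions, and the mark decides which parental copy is transcribed. At some of these regions the protein CTCF, which stops the loop-extruding cohesin complex, binds only the unmethylated copy. Many imprinted genes balance growth, such as the fetal growth factor Igf2 and its clearance receptor Igf2r, and several are made in the uterus and the placenta. The lists were not split by parental copy, and in an inbred strain the maternal and the paternal chromosome cannot be told apart.

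The 4 lists held 16062, 9200, 11497 and 21288 autosomal loops in vehicle replicate 2, vehicle replicate 3, progesterone and knockout. The lists give positions only, so depth and loop strength are unknown, and a loop missing from a list may still exist in the tissue. Loop positions hold no expression values, so neither the uterus label nor the loss of ERα could be checked here.

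With gene bodies extended by 10 kb, most of the imprinted genes had a loop. In the order vehicle replicate 2, vehicle replicate 3, progesterone and knockout, 34, 31, 32 and 35 of the 45 protein-coding members had at least 1 loop. That is 75.6%, 68.9%, 71.1% and 77.8% of them, beside 58.8%, 46.3%, 51.1% and 66.2% of all autosomal protein-coding genes. The lower bounds of the member shares (60.5%, 53.4%, 55.7% and 62.9%) were above the background in the first 3 libraries and below it in the knockout. Here and in the length classes below, the intervals treat members as independent, although neighbouring members can share a loop. The members were also chosen with earlier results of these data known, so the bounds describe the shares and are no test. Of the 6 lncRNA members, 4, 2, 2 and 2 had a loop, beside 45.3%, 34.3%, 38.7% and 51.1% of all lncRNA genes. H19 and Airn were the lncRNAs with a loop in every list, and Meg3 and Rian had theirs in vehicle replicate 2 alone.

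A longer gene offers more room for an anchor, so the shares were also set beside those of genes of like length. Among members of 20 to 100 kb, 17, 15, 15 and 17 of 19 had a loop, beside 68.9%, 53.7%, 59.9% and 77.7% of genes of that length. Among the 17 members under 20 kb, 10, 8, 10 and 10 had a loop, beside 46.9%, 35.5%, 39.5% and 54.4%. Among the 9 members over 100 kb, 7, 8, 7 and 8 had a loop, beside 84%, 75%, 79.6% and 87%. Within length classes the background thus lay inside the interval of the members, except for the middle class in vehicle replicate 3 (78.9%, 54.4 to 93.9, against 53.7%).

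In all, 79, 58, 67 and 104 loops touched a member, which is 0.492% (0.39 to 0.613), 0.63% (0.479 to 0.814), 0.583% (0.452 to 0.74) and 0.489% (0.399 to 0.592) of the autosomal loops. The number of member loops thus followed the length of the list. Member loops were long, with medians of 245, 250, 250 and 165 kb against 180, 200, 190 and 150 kb for all autosomal loops. At gene level, 31 members had a loop in every library, 9 in some and 11 in none. Of the 45 protein-coding members, 29 had one in every library (64.4%) and 9 in none (20%), beside 39.8% and 28.5% of all autosomal protein-coding genes. Of the 6 lncRNA members, 2 had one in every library and 2 in none, beside 27.7% and 40.9% of lncRNA genes. Neighbouring members can share a loop, so these are not independent counts. The 11 without a loop were Mest, Nap1l5, Snrpn, Ndn, Mkrn3, Peg12, Kcnq1ot1, Phlda2, Dlk1, Mirg and Impact.

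**Figure D1:**
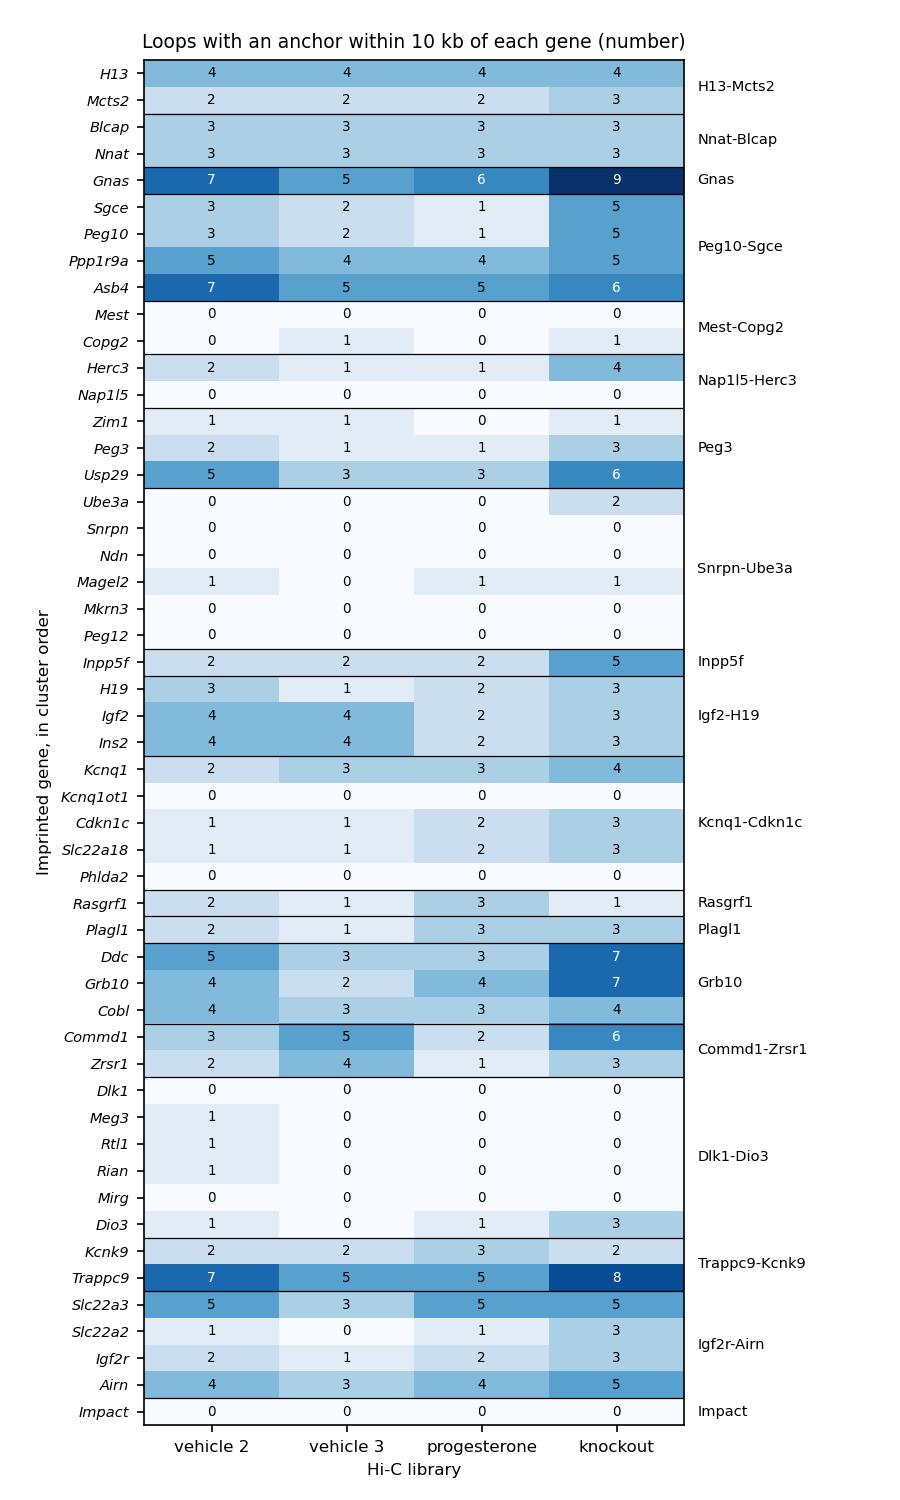
Number of loops with an anchor within 10 kb of each of the 51 imprinted genes (rows, in cluster order) in each of the 4 Hi-C libraries (columns), with darker blue for more loops. Gnas and Trappc9 reach 9 and 8 loops in the knockout, while Snrpn, Ndn, Mkrn3, Peg12, Dlk1 and Mirg stand at 0 in every library.

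Start sites of imprinted genes lay inside anchors about as often as those of other genes. RefSeq promoter sequences (GRCm38.p6, 250 bases before to 50 bases after a start) were at hand for 41 of the 51 members, and 8, 7, 8 and 13 of these had a start inside an anchor, which is 19.5%, 17.1%, 19.5% and 31.7%. The same share over all genes of the promoter table was 25.3%, 16.5%, 20.2% and 33.4%, inside each member interval. Grb10, Gnas, Asb4 and Inpp5f had a start inside an anchor in all 4 libraries. Their sequences before the start are shown for that reason, cut so that no base of a gene body is included. The sequence between Peg3 and Usp29, a head-to-head gene pair, is shown with them because an anchor in vehicle replicate 2 covered both starts. Each reads 5′ to 3′ on the strand of the named gene, with every CpG in capitals. Methylation was not measured, and the sequences were not chosen as imprint control regions.
Grb10: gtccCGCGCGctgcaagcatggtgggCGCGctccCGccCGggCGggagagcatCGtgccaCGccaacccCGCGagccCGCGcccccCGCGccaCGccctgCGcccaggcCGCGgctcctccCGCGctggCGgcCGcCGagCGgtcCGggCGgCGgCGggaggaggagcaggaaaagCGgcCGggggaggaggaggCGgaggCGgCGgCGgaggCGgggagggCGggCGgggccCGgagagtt
Gnas: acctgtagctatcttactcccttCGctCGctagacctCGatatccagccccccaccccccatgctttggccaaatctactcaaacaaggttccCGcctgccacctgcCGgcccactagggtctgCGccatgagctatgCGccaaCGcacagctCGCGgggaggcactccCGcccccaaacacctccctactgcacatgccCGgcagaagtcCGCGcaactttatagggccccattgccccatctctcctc
Inpp5f: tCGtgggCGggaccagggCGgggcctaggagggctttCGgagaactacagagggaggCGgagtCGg
Asb4: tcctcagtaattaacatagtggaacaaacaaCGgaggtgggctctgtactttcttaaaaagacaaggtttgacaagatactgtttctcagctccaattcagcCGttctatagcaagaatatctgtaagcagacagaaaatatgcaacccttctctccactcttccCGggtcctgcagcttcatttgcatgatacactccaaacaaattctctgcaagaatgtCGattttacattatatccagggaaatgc
Peg3: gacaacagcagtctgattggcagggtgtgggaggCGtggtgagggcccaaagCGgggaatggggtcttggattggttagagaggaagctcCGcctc

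The Grb10 sequence (chr11:12037429-12037670, minus strand) held 40 CpG in 242 bases and 82.2% G and C. The Gnas sequence (chr2:174284070-174284319, plus strand) held 14 CpG in 250 bases, and the Asb4 sequence (chr6:5383136-5383385, plus strand) held 4 in 250 bases. Where a gene had several starts inside an anchor in all 4 libraries, the one of lowest position is shown. Over 300-base windows, the other such Gnas starts (chr2:174327749 and chr2:174327768) held 27 and 28 CpG against 16. The other Asb4 start (chr6:5390410) held 8 against 6. The median over 31396 autosomal promoters was 6 CpG in the 250 bases before the start, so Grb10 and Gnas lay above it and Asb4 below. The Inpp5f sequence (chr7:128611115-128611180, plus strand) held 6 CpG in 66 bases, and the Peg3 and Usp29 interval (chr7:6730463-6730558, minus strand) held 3 in 96 bases. The Inpp5f gene body begins ahead of the start found in the anchor (chr7:128611365), so this sequence does not adjoin that start. Over the full 300-base windows, member promoters had a median of 13 CpG against 7 for all promoters. Member promoters inside an anchor of at least 1 library had a median of 17 CpG (22 promoters) and the others 10 (37 promoters), while over all promoters these medians were 17 and 4. The core of the CTCF motif, searched on both strands as CCA, any 2 bases, AG, any 2 bases and GGCA, was found in 1 of 59 member promoters (1.69%), that of Peg12, and in 0.828% of all promoters. The anchors themselves were not searched, since no genome sequence was used here.

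Igf2 and H19 are the textbook case of loop-based imprinting. Igf2 encodes a growth factor made from the paternal copy, H19 is a maternally expressed lncRNA, and a CTCF-bound control region between them separates Igf2 from shared enhancers on the maternal copy. The cluster on chromosome 7 had 7, 5, 4 and 6 loops, of which 3, 1, 2 and 3 touched H19 and 4, 4, 2 and 3 touched Igf2. The latter also touched Ins2, an insulin gene next to Igf2, so these genes share their loops.

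Loops left from a pair of places in this cluster. On the H19 side the anchor was mostly chr7:142580001-142585000, which lies between H19 (chr7:142575530-142578146) and Igf2 (chr7:142650768-142666816). On the far side the anchor was mostly chr7:142670001-142680000, which runs from the interval after Igf2 into Ins2 (chr7:142678656-142679726), and began 3.19 kb from the nearest Igf2 start in every list. Both places were joined to the same 3 stretches beyond H19. The stretch chr7:142310001-142340000 next to Ifitm10 was joined to H19 and to Igf2 in each of the 4 lists. The stretch chr7:142430001-142445000 at Syt8 and Tnni2 was joined to H19 in vehicle replicate 2, progesterone and knockout, and to Igf2 in the vehicle libraries only. The stretch chr7:142530001-142550000 at Mrpl23, a mitochondrial ribosomal protein gene, was joined to H19 in vehicle replicate 2 and the knockout, and to Igf2 in all lists but that of progesterone. No list held a loop between the H19 place and the Igf2 place (0 in each of 4). The stretches are far anchors merged over the lists where they lay within 20 kb of each other, a step chosen after the positions were seen.

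A short loop was the constant feature of Igf2. It ran from chr7:142605001-142610000, between H19 and Igf2, to chr7:142670001-142675000 in vehicle replicates 2 and 3 (65 kb), and started 5 kb later in the progesterone and knockout lists (60 kb). It was the only loop of the cluster that matched in all 4 lists when both anchors had to meet within 10 kb. The 240 kb loop from Syt8 (chr7:142430001-142440000) to Igf2 and Ins2 was the only member loop in both vehicle lists that was missing after progesterone and in the knockout, with no loop within 25 kb in either list.

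Cdkn1c, an inhibitor of cyclin-dependent kinases that restrains growth, lies beyond Igf2 on the same chromosome with Kcnq1 (a potassium channel), Kcnq1ot1 (the antisense lncRNA that silences the cluster in cis), Slc22a18 (a transporter) and Phlda2 (a brake on placental growth). The cluster had 2, 3, 3 and 4 loops. A 315 kb loop from Kcnq1 (chr7:143150001-143155000) to the interval between Cdkn1c and Slc22a18 (chr7:143465001-143470000) had the same anchors in every list. It encloses all of Kcnq1ot1 (chr7:143213111-143296547), which touched no anchor itself. A 95 kb loop from Kcnq1 to Cdkn1c (chr7:143365001-143370000 to chr7:143460001-143465000) was in the progesterone and knockout lists and in neither vehicle list, and a 55 kb loop to the same Cdkn1c anchor was in the knockout list alone. A 200 kb loop from Th to Trpm5 matched in all 4 lists but came within 10 kb of Kcnq1 in vehicle replicate 3 only. Cdkn1c and Slc22a18 shared their loops, 1, 1, 2 and 3 in number. The Phlda2 start lay 32.5 kb from the nearest anchor in all 4 libraries.

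**Figure D2:**
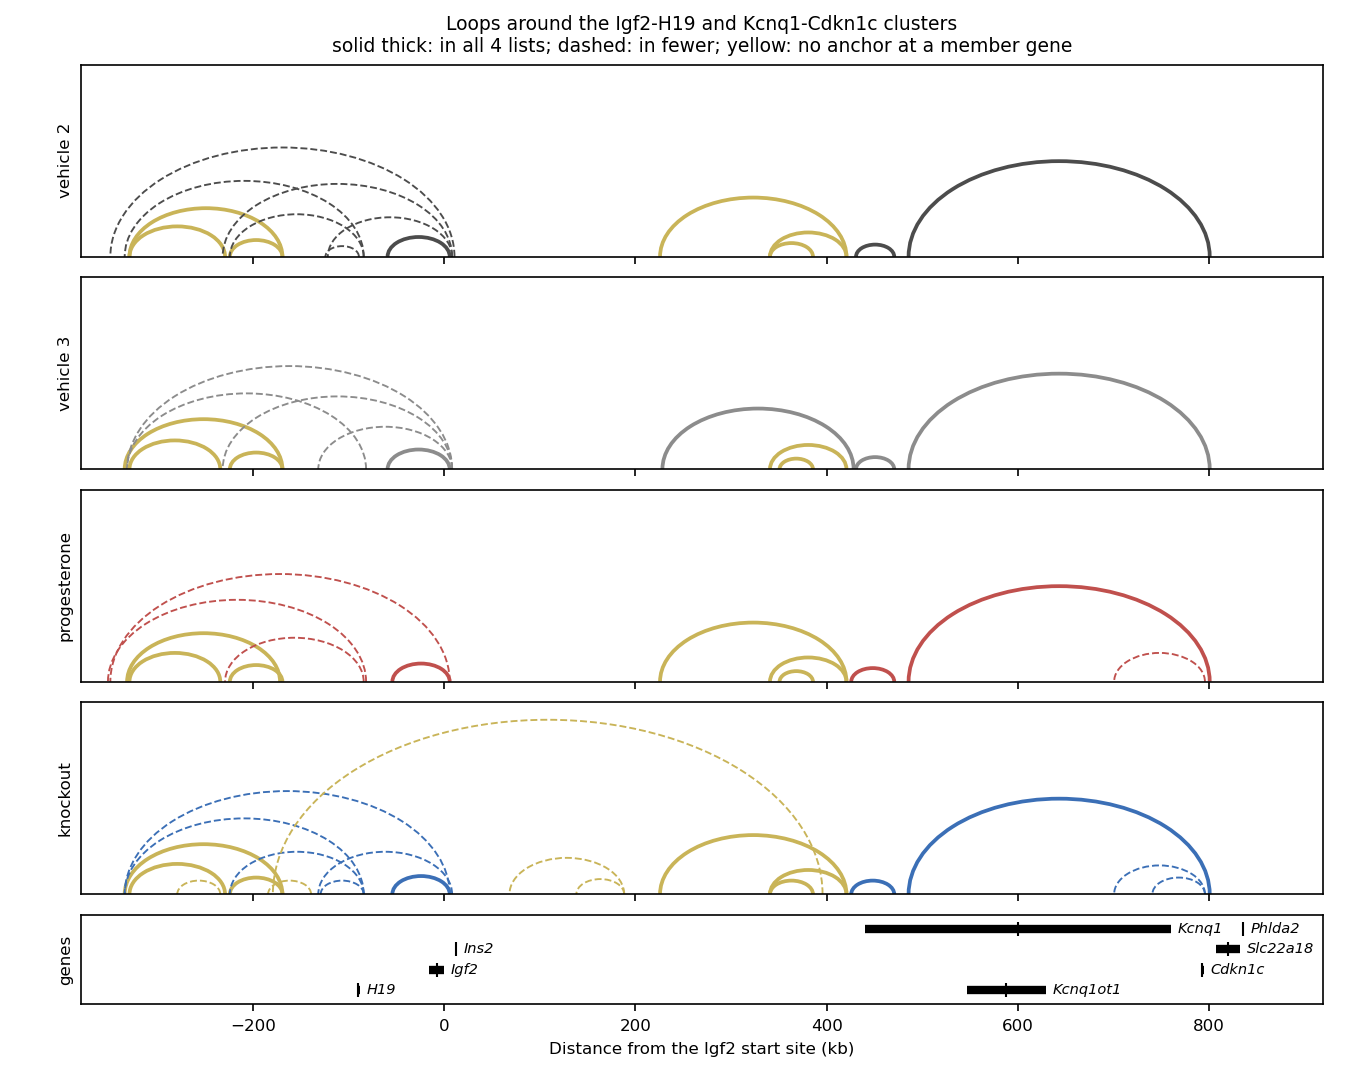
Loops around the Igf2-H19 and Kcnq1-Cdkn1c clusters as arcs between anchor centres, by distance from the Igf2 start site in kb (x axis), with a panel for each library and the genes at the bottom. Arc height is proportional to loop length, thick solid arcs matched in all 4 lists, dashed arcs in fewer, and yellow arcs had no anchor at a member. The 315 kb Kcnq1 arc is in all 4 panels, while the arcs that reach H19 and Igf2 from the left differ between panels.

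Igf2r encodes the receptor that clears IGF2, and Airn is the antisense lncRNA that silences Igf2r and the organic cation transporters Slc22a2 and Slc22a3 in cis. This cluster on chromosome 17 had 9, 5, 10 and 13 loops. Slc22a3 had 5, 3, 5 and 5 loops, Airn 4, 3, 4 and 5, Igf2r 2, 1, 2 and 3, and Slc22a2 1, 0, 1 and 3. A set of 4 loops matched in every list. Among them, the shared anchor chr17:12415001-12420000 at the end of Slc22a3 reached chr17:12530001-12535000 (115 kb) and Airn at chr17:12810001-12815000 (395 kb) in vehicle replicate 2. Another joined chr17:12535001-12540000, between Slc22a3 and Slc22a2, to the same Airn anchor (275 kb). The loop inside the Igf2r and Airn pair was less regular. It left chr17:12720001-12725000 in Igf2r and reached Airn at chr17:12810001-12815000 in vehicle replicate 2 and progesterone (90 kb), but at chr17:12790001-12795000 in vehicle replicate 3 and the knockout (70 kb). The start of Igf2r lay 9.71, 20.3, 30.3 and 9.71 kb from the nearest anchor. Slc22a2 had 3 loops in the knockout, and none of these matched a vehicle loop within 10 kb, though 1 of them had a vehicle loop within 25 kb.

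**Figure D3:**
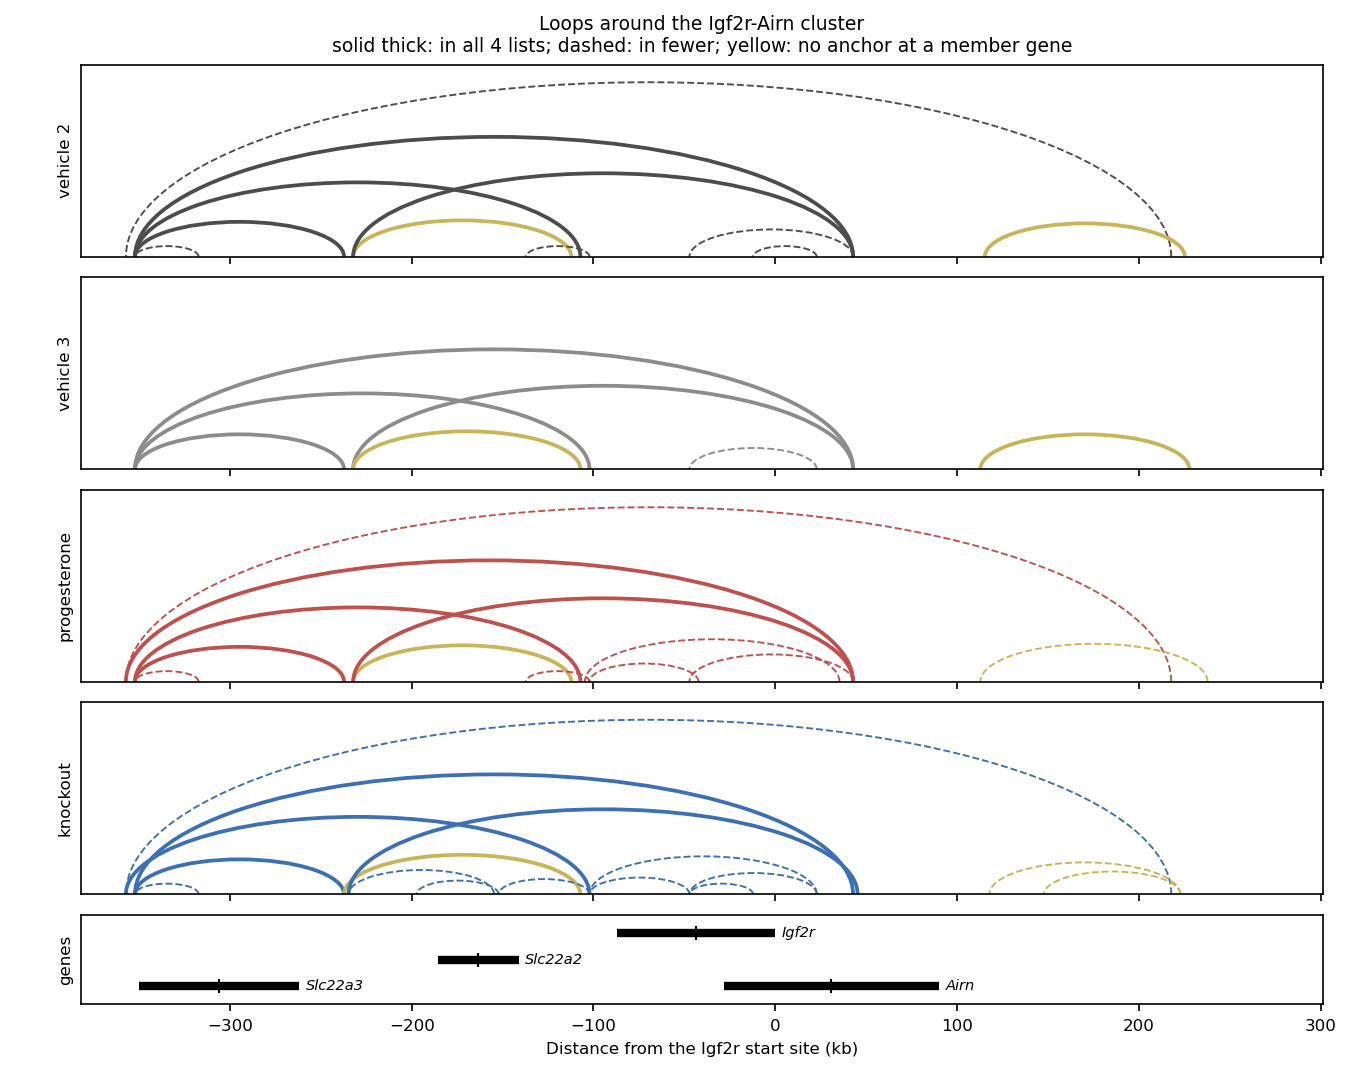
Loops around the Igf2r-Airn cluster as arcs between anchor centres, by distance from the Igf2r start site in kb (x axis), with a panel for each library and the genes at the bottom. Line styles mark recurrence as in the title. The 4 thick member arcs from the left part of the map recur in each panel, and the short dashed arcs within Igf2r, Airn and Slc22a2 differ.

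Grb10, an adaptor that dampens insulin and IGF signalling, lies on chromosome 11 between Ddc (the decarboxylase that makes dopamine and serotonin) and Cobl (an actin nucleator). The cluster had 9, 5, 6 and 12 loops, with 5, 3, 3 and 7 at Ddc, 4, 2, 4 and 7 at Grb10 and 4, 3, 3 and 4 at Cobl. A 150 kb loop from Ddc to Grb10 (chr11:11820001-11825000 to chr11:11970001-11975000 in vehicle replicate 2) and a 480 kb loop from Ddc to Cobl (chr11:11810001-11815000 to chr11:12290001-12295000) matched in every list. A 70 kb loop within Grb10 ended at its start site (chr11:12035001-12040000) in vehicle replicate 2 and the knockout and matched a loop of the progesterone list. A 250 kb loop from the Grb10 start to Cobl (chr11:12025001-12050000 to chr11:12275001-12300000) was in the other 3 lists and not in vehicle replicate 2. In the knockout, 4 loops of the cluster were in neither vehicle list, and 3 of them touched Ddc. For 2 of the 4, a vehicle list had a loop within 25 kb.

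Plagl1 and Rasgrf1 are single-gene clusters. Plagl1, a zinc finger factor that regulates other imprinted genes, had 2, 1, 3 and 3 loops. Its 340 kb loop to Phactr2 (chr10:13085001-13090000 to chr10:13425001-13430000) had the same anchors in every list, 0.832 kb before the Plagl1 start. Progesterone had 2 further Plagl1 loops that were in no other list, of 230 and 1300 kb. A 410 kb loop (chr10:13015001-13020000 to chr10:13425001-13430000) enclosed Plagl1 without touching it, with the same anchors in every list. Rasgrf1, a guanine nucleotide exchange factor for Ras, had 2, 1, 3 and 1 loops. A 145 kb loop within and upstream of the gene (chr9:89825001-89830000 to chr9:89970001-89975000) had the same anchors in every list. An 85 kb loop ended 0.226 kb from the Rasgrf1 start in vehicle replicate 2 and progesterone and was in neither of the other lists.

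The Dlk1-Dio3 cluster on chromosome 12 had few anchors at its genes, but its span was not poor in loops. With the 10 kb limits the span is 849 kb, and 8, 1, 5 and 12 loops had an anchor in it. That is 9.43, 1.18, 5.89 and 14.1 loops per Mb, against 6.73, 3.86, 4.82 and 8.92 over the autosomes. Dlk1 (a Notch-like regulator of differentiation), the lncRNAs Meg3, Rian and Mirg, Rtl1 (a gene derived from a retrotransposon) and Dio3 (the deiodinase that inactivates thyroid hormone) had 2, 0, 1 and 3 loops in all. RefSeq places 11 snoRNA genes inside Rian and 10 microRNA genes inside Mirg, and Mirg touched no anchor. Meg3, Rtl1 and Rian shared a 675 kb loop with 25 kb anchors in vehicle replicate 2, and Dio3 had 1, 0, 1 and 3 loops. The Dio3 start lay inside an anchor in all libraries but vehicle replicate 3, where the nearest anchor was 74.2 kb away.

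The whole Dlk1-Dio3 cluster was enclosed by 2 loops that matched in all 4 lists. The shorter joined chr12:109430001-109440000, 12.5 kb before Dlk1, to chr12:110370001-110380000, 88.9 kb beyond Dio3, over 940 kb in vehicle replicate 3, progesterone and the knockout. In vehicle replicate 2 it had 5 kb anchors and a length of 935 kb. This loop is not among the member loops because its anchor is outside the 10 kb limit. A further loop of 120 to 125 kb between Mirg and Dio3 (chr12:110080001-110085000 to chr12:110200001-110205000 in the vehicle libraries) matched in all 4 lists and met no member.

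**Figure D4:**
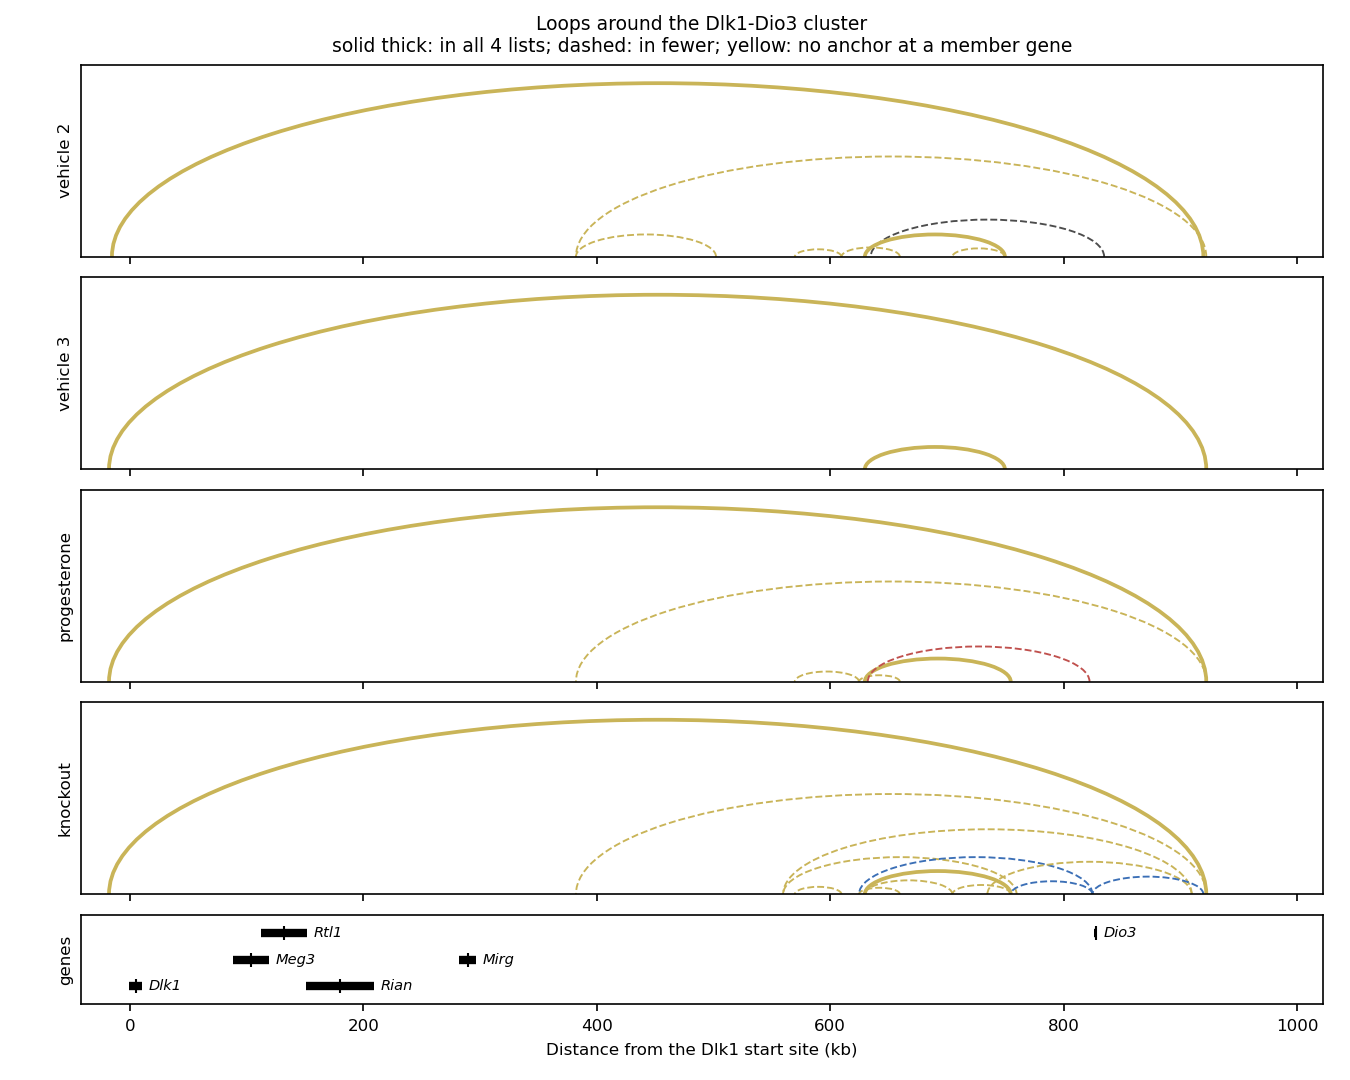
Loops around the Dlk1-Dio3 cluster as arcs between anchor centres, by distance from the Dlk1 start site in kb (x axis), with a panel for each library and the genes at the bottom. Line styles mark recurrence as in the title. The arc of 935 to 940 kb that encloses all 6 genes is in each panel, and vehicle replicate 3 has no loop at a member inside the map.

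Dlk1 was thus just outside the limit, as was Nap1l5, whose start lay 12.9 kb from the nearest anchor in each library. Just inside it was the H13 loop toward Defb36, with an anchor 9.42 kb before the gene in every list. The other H13 loops had an anchor over the gene body. Zim1 was just inside the limit too, with an anchor 9.44 kb away in vehicle replicate 2 and the knockout. Mest also sat inside a large loop without touching it. A loop from Klhdc10 to the neighbourhood of Klf14 (chr6:30400001-30405000 to chr6:30980001-30985000, 580 kb, in vehicle replicate 2) enclosed Mest, a paternally expressed growth gene, and its neighbour Copg2 (a coatomer subunit) and matched in all 4 lists. Copg2 had 0, 1, 0 and 1 loops, an 85 kb loop with the same anchors in vehicle replicate 3 and the knockout.

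Snrpn and Ube3a, the genes of the Prader-Willi and Angelman region, lay in a loop-poor stretch. The cluster, with Ndn and Magel2 (MAGE family proteins), Mkrn3 (a zinc finger ubiquitin ligase) and Peg12, spans 3260 kb with the 10 kb limits and had 1, 0, 1 and 3 loops. That is 0.307, 0, 0.307 and 0.921 loops per Mb, against 6.73, 3.86, 4.82 and 8.92 over the autosomes. No list held a loop at Snrpn, Ndn, Mkrn3 or Peg12, and the nearest anchor to the closest Snrpn start was 275 kb away in the progesterone list. RefSeq counts 8 protein-coding and 206 snoRNA genes in this span. Magel2 had 1, 0, 1 and 1 loops. Ube3a, the ubiquitin ligase gene, had its 2 loops in the knockout alone, of 830 and 7375 kb, each with an anchor over the Ube3a start (chr7:59220001-59230000 for the shorter). On chromosome 18, Impact, a regulator of translation, likewise had no loop in any list.

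Peg10, a retrotransposon-derived gene needed for the placenta, and Sgce (epsilon-sarcoglycan) stand head to head on chromosome 6 and shared 3, 2, 1 and 5 loops. Ppp1r9a (neurabin) had 5, 4, 4 and 5 loops and Asb4, which is expressed from the maternal copy, 7, 5, 5 and 6. The cluster had 12, 9, 9 and 13 loops, of which 6 of the 12 in vehicle replicate 2 matched in all lists. All 6 were at Ppp1r9a or Asb4. They included the loop from Ppp1r9a to Asb4 (chr6:5110001-5120000 to chr6:5380001-5390000, 270 kb) and the loop from Asb4 to Pon2 (chr6:5295001-5300000 to chr6:5380001-5385000, 85 kb). The Asb4 anchor covers its start. Peg10 and Sgce had no loop in all 4 lists. Their 370 kb loop to Ppp1r9a (chr6:4740001-4750000 to chr6:5110001-5120000) was in both vehicle lists and the knockout and not in the progesterone list, which had none within 25 kb.

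Peg3, a zinc finger gene of maternal care and growth, had 2, 1, 1 and 3 loops, its partner Usp29 (a ubiquitin protease) 5, 3, 3 and 6, and Zim1 1, 1, 0 and 1. The cluster on chromosome 7 had 5, 3, 3 and 6 loops, and none of those of vehicle replicate 2 matched in all 4 lists. The Peg3 anchor chr7:6725001-6730000 recurred in progesterone and knockout, and the start of Peg3 lay 0, 5.42, 0.419 and 0.419 kb from the nearest anchor. Its 365 kb loop to Zfp78 (chr7:6360001-6365000) was in vehicle replicate 2 and the knockout and matched a 350 kb loop with 25 kb anchors in vehicle replicate 3, while progesterone had a 345 kb loop that started 20 kb farther in. That progesterone loop was not within 10 kb of the loop of vehicle replicate 2 or of the knockout, but it too matched the wider loop of vehicle replicate 3, which thus had a match in all 4 lists. The knockout also had Peg3 loops of 440 and 555 kb to the zinc finger genes Zfp667 and Zfp444, which were in no other list.

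Gnas, which encodes the stimulatory G protein alpha subunit through several promoters, was the member with the most loops in the knockout (7, 5, 6 and 9). Of the 7 in vehicle replicate 2, 5 matched in all lists. From chr2:174310001-174315000 in the gene, loops reached Zfp831 at chr2:174670001-174675000 (360 kb) and the intergenic sites chr2:174855001-174860000 (545 kb) and chr2:174900001-174905000 (590 kb), with the same anchors in all 4 lists. A 145 kb loop from chr2:174325001-174330000, which covers a Gnas start, reached Prelid3b, and a 695 kb loop from the other end of the gene reached the neighbourhood of Ankrd60. The knockout alone had loops of 220 and 1175 kb.

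The other 2 clusters of chromosome 2 were the most regular. H13 (signal peptide peptidase), which hosts the retrogene Mcts2 in an intron, had 4 loops in each list, and all 4 of vehicle replicate 2 matched in every list. They led toward Defb36 (40 kb) and Id1 (40 kb), and to the interval of Cox4i2 and Bcl2l1 (70 kb) and Bcl2l1, a regulator of cell death (140 kb). Mcts2 shared 2, 2, 2 and 3 of them. Nnat (neuronatin, within Blcap) and Blcap had 3 loops in each list, all from chr2:157570001-157575000, and all matched in every list. They reached Rpn2 (285 kb), Ghrh (230 kb) and Src (115 kb) in vehicle replicate 2. The anchor they share lay over neither gene body, 3.64 kb from the Blcap start and 9.92 kb from the Nnat start. These loops thus count for the cluster only through the 10 kb extension.

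Among the remaining clusters, Commd1, a copper handling gene, had 3, 5, 2 and 6 loops and its intronic retrogene Zrsr1 2, 4, 1 and 3. Loops from Commd1 to Xpo1 (chr11:22985001-22990000 to chr11:23270001-23275000, 285 kb) and to a site 111 kb from Tmem17 (325 kb) matched in all lists. A 110 kb loop to B3gnt2 was in both vehicle lists and the knockout and not in the progesterone list. Herc3, a ubiquitin ligase gene that hosts Nap1l5, had 2, 1, 1 and 4 loops, of which the 260 kb loop of vehicle replicate 2 toward Tigd2 matched in every list. Inpp5f, a phosphoinositide phosphatase gene, had 2, 2, 2 and 5. Its 90 kb loop from the start site to Bag3 (chr7:128520001-128530000 to chr7:128610001-128620000) and its 220 kb loop toward Tial1 were in every list, and the knockout had 3 more that were in no other list. Trappc9 (a vesicle trafficking subunit) had 7, 5, 5 and 8 loops and Kcnk9 (a potassium channel) 2, 2, 3 and 2. The 265 kb loop from Kcnk9 to Trappc9 (chr15:72545001-72550000 to chr15:72810001-72815000) and the 120 kb loop from Trappc9 to Ago2 matched in every list.

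Of the loops at imprinted genes, 13, 10, 11 and 17 joined 2 different members, which is 16.5% (9.06 to 26.5), 17.2% (8.59 to 29.4), 16.4% (8.49 to 27.5) and 16.3% (9.82 to 24.9). Of all loops at a protein-coding gene, 47.2%, 48.2%, 47.7% and 49% joined 2 different protein-coding genes, though members are a far smaller set to join within. The pairs joined in every list were Ddc and Cobl, Ddc and Grb10, Igf2r and Airn, Slc22a3 and Airn, Kcnq1 and Cdkn1c, Kcnq1 and Slc22a18, Ppp1r9a and Asb4, and Kcnk9 and Trappc9. Pairs with Peg10 or Sgce were joined to Ppp1r9a in all lists but that of progesterone.

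Loops at imprinted genes recurred across libraries about as often as other loops. Of the 79 in vehicle replicate 2, 36 (45.6%, 34.3 to 57.2) matched in all 4 lists, beside 39% of all autosomal loops of that list. Counted from the other lists, 38 of 58 loops of vehicle replicate 3 (65.5%, background 69.4%), 36 of 67 of progesterone (53.7%, background 55.1%) and 36 of 104 of the knockout (34.6%, background 29.3%) did so. Between the vehicle replicates, 32 of 79 loops of replicate 2 were not in replicate 3 (40.5%, background 50.7%), and 10 of 58 of replicate 3 were not in replicate 2 (17.2%, background 14.2%). Of the 19 clusters, 15 had a loop in every library, and 14 had a loop of vehicle replicate 2 that matched in all 4 lists. In 4 clusters, H13-Mcts2, Nnat-Blcap, Inpp5f and Kcnq1-Cdkn1c, every loop of vehicle replicate 2 did so.

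Progesterone treatment was compared with saline. Of 47 member loops in both vehicle lists, 8 were not in the progesterone list (17.0%, 7.65 to 30.8), beside 15% of all autosomal loops. They lay at Igf2 and Ins2 (2), H19 (1), the Peg3 cluster (2), Peg10 and Sgce (1), Commd1 and Zrsr1 (1) and Trappc9 (1). For 3 of them, the H19 loop to Ifitm10 and both in the Peg3 cluster, the progesterone list had a loop within 25 kb. In the other direction, 12 of 67 progesterone member loops were in neither vehicle list (17.9%, 9.61 to 29.2), beside 14.7% of all autosomal loops. Of the 12, 2 had a vehicle loop within 25 kb. In no other list were 9 of the 67 (13.4%, 6.33 to 24.0), beside 8.43%. For the vehicle loops not in the progesterone list, the spread between the vehicle libraries gave a baseline on either side of the 17.0%. No such baseline was made for the progesterone loops in neither vehicle list or in no other list. Of 53 member loops shared by vehicle replicate 2 and progesterone, 14 were not in vehicle replicate 3 (26.4%, background 28.1%), and 1 of 42 shared by vehicle replicate 3 and progesterone was not in vehicle replicate 2 (2.38%, background 5.9%). Each member interval included its background.

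The knockout library was compared in the same way, with the same injection in each group. Of the 47 member loops in both vehicle lists, 4 were not in the knockout list (8.51%, 2.37 to 20.4), beside 10% of all autosomal loops. These were loops from Igf2 and Ins2 to Syt8 (240 kb), from Asb4 to Col1a2 (840 kb), within and beyond Cobl (170 kb) and from Trappc9 to a site near Col22a1 (840 kb). The Cobl loop had a knockout loop within 25 kb. Of 104 knockout member loops, 34 were in neither vehicle list (32.7%, 23.8 to 42.6), beside 40.4% of all autosomal loops. Of the 34, 3 had a vehicle loop within 25 kb. In no other list were 31 of the 104 (29.8%, 21.2 to 39.6), beside 36.8%. The 34 were spread over 13 clusters, with 6 in Igf2r-Airn, 4 in Grb10 and 3 each in Peg10-Sgce, Inpp5f and Trappc9-Kcnk9. The knockout list was the longest, and its effect on these counts was not tested. The baseline here is for the vehicle loops not in the knockout list only. Of 63 member loops shared by vehicle replicate 2 and the knockout, 20 were not in vehicle replicate 3 (31.7%, background 40.3%). Of 51 shared by vehicle replicate 3 and the knockout, 7 were not in vehicle replicate 2 (13.7%, background 7.81%).

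**Figure D5:**
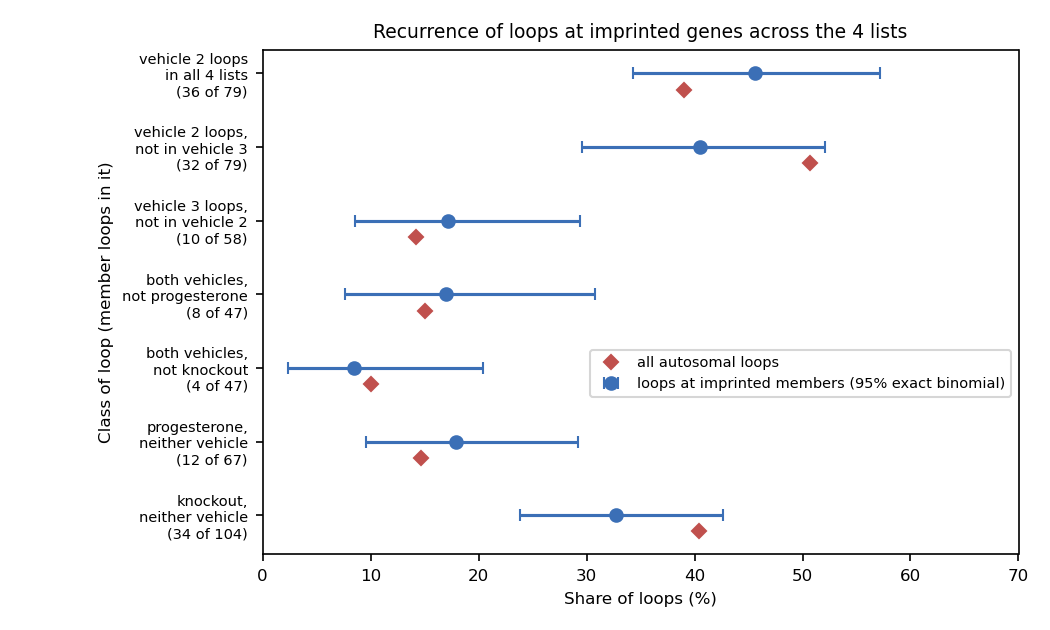
Share of loops (x axis, %) in each recurrence class for loops at imprinted genes (blue points with exact binomial 95% intervals) and for all autosomal loops (red diamonds), with the member counts at the left. Each red diamond lies within the interval of its blue point.

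A second list held 40 other genes reported as imprinted in the mouse, of which 39 were matched (36 protein-coding, 2 lncRNA and 1 antisense RNA). Of these, 23, 25, 23 and 31 had a loop by the same rule (59.0%, 64.1%, 59.0% and 79.5%), beside 58.8%, 46.3%, 51.1% and 66.2% of all autosomal protein-coding genes. A loop in every list was found for 22 (56.4%, beside 39.8%) and none for 8 (20.5%, beside 28.5%). In vehicle replicate 2 the share was thus near that of all protein-coding genes, although the list also holds non-coding genes. Pde10a, a phosphodiesterase gene near the Igf2r cluster, had 6, 3, 5 and 6 loops, and Ago2, next to Trappc9, 3, 3, 3 and 7. Of 15 genes for factors that keep or read imprints, all protein-coding, 12, 7, 9 and 14 had a loop (80.0%, 46.7%, 60.0% and 93.3%). These stand beside the same shares of all protein-coding genes. A loop in every list was found for 7 (46.7%, beside 39.8%). In vehicle replicate 3 the share with a loop was near that of all protein-coding genes. Trim28, the corepressor recruited by imprint-binding zinc finger proteins, had 3, 1, 4 and 4 loops, while Zfp57, such a protein, had 1, 0, 0 and 3. Ctcf itself had 0, 0, 0 and 2, and Dppa3 had none.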

How the data were processed

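Loop lists of 4 Hi-C libraries of mouse uterus (Arima kit, per the labels) were used: 2 WT vehicle, 1 WT progesterone and 1 ERα knockout, grouped by the labels. For each library the authors deposited 6 columns with no header, other values than counts or scores: chromosome and position of each anchor, in bases. The build (mm10) and Juicer 1.5.6 are named per the submitters' processing notes. Anchors are 5, 10 or 25 kb, and starts were written from 1. Depth is unknown, with caller settings not given in the sources used here.

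Genes were taken from RefSeq tables of GRCm38.p6. The members, clusters and lists were chosen with earlier results of these data known. Anchors were intersected with gene bodies extended by 10 kb. A match in another list needed a loop there that met both anchors widened by 10 kb on each side. Loops of each class were counted beside all autosomal loops, with exact (Clopper-Pearson) 95% intervals, which treat loops as independent although neighbouring ones are not. No test was run. A gene of the second list is not reported here by name. Every member is accounted for, and loops named by position were, per cluster, first those in all 4 lists, then those that differed, by finest anchor. Further loops and far genes were named after their values were seen. The match and overlap steps were tested on simulated loops. Alternatives were other gene extensions, gene ends only, 5 kb anchors only, other match widths and each vehicle replicate left out. Python 3.11.15, numpy 2.4.6, pandas 2.3.3, scipy 1.17.1 and matplotlib 3.10.9 were used.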

Additional observations from a re-analysis of the deposited data

How the results depend on the processing

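Of 70 alternative values, 52 stayed within 1.5 times the reported count and 18 did not. With 5 kb anchors only, the loops touching members were 51, 29, 43 and 64 in vehicle replicate 2, vehicle replicate 3, progesterone and knockout, vehicle loops missing after progesterone were 2 instead of 8, vehicle loops missing from the knockout 1 instead of 4, and the knockout loops in neither vehicle list 22 instead of 34. With no bases added for a match, 18 instead of 36 loops matched in all 4 lists, 27 instead of 12 progesterone loops were in neither vehicle list and 8 instead of 4 loops were missing from the knockout. With 25 kb added, 5 loops were missing after progesterone. With gene ends in place of gene bodies, 2 loops were missing from the knockout. Without vehicle replicate 2 or 3, the loops missing after progesterone were 16 to 26, those missing from the knockout 7 to 16, the progesterone loops in no vehicle list 14 to 26 and the knockout loops in no vehicle list 41 to 54. Counts of members with a loop kept within 1.5 times under every alternative run. They were lowest without extension of the gene bodies in vehicle replicates 2 and 3, progesterone and knockout. There, 26, 24, 25 and 30 of the 51 members had a loop, instead of 38, 33, 34 and 37. The share over all genes is not given for that setting. No paired analysis was possible because the groups share only 1 replicate number, and that number only names libraries. The lists hold no contact counts, so a limit from depth could not be given.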

Other observations

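Esr1, the gene altered in the knockout, had 4, 5, 4 and 9 loops within 10 kb in vehicle replicate 2, vehicle replicate 3, progesterone and knockout, so its loops were listed in the knockout library as well. Loop positions do not show whether part of the gene was deleted.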
